A study of Mus musculus with 6 samples.

Results

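The tight junction and JAM family genes examined here are the 7 mouse genes Tjp1, Tjp3, Jam2, Jam3, F11r, Esam and Ocln. They were measured in bone marrow LSK cells from control mice and from mice with Srf, which encodes the transcription factor SRF, targeted for deletion. The genes were read on 14 probe sets out of 45037 that are not array controls. The 14 are all the probe sets whose annotation names 1 of these genes and no other. LSK cells lack lineage markers and carry Sca1 and c-Kit on their surface, and both hematopoietic stem cells and multipotent progenitors fall in this fraction. The control group (3 arrays) came from Srf+/+;Mx1-Cre mice and the SRF-null group (3 arrays) from Srf flx/flx ;Mx1-Cre mice, all C57BL/6. In each genotype, mice 6 weeks old received 3 injections of 200 µg pIpC, 1 every 2 days, with sorting 35 days later. The controls thus carry the same Cre transgene and received the same pIpC, a double-stranded RNA that induces interferon. The Mx1 promoter responds to interferon in many cell types, so recombination is not limited to LSK cells. Cells were sorted from pooled animals, and 30 ng of RNA was amplified for each array. How many animals made up a pool is unknown here, and the errors measure the spread between these pools, which may in part be technical.

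Tight junctions seal neighbouring epithelial or endothelial cells to each other. Their membrane proteins, the claudins, occludin and the JAMs, are held to the actin cytoskeleton by the ZO scaffold proteins inside the cell. Blood cells form no such seals, but several of these proteins sit on stem cells, leukocytes and platelets, where JAMs and ESAM serve adhesion to endothelium, to stroma and to integrins. Tjp1 and Tjp3 encode the scaffolds ZO-1 and ZO-3, and Ocln encodes occludin. F11r, Jam2 and Jam3 encode JAM-A, JAM-B and JAM-C, and Esam encodes a related immunoglobulin protein of endothelial cells, platelets and hematopoietic stem cells.

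Values are signals on the scale log2(intensity + 16) after quantile normalization. Differences are SRF-null minus control on that scale, with the standard error (SE) of the limma fit, and the scale understates differences of dim probe sets. The genes were chosen by family name with the differences of this very comparison already known, so their differences are given as a description and carry no test. The position of each probe set in its gene was not used, and levels are not compared between probe sets, which differ in how strongly they bind.

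The arrays had median deposited signals of 200.5 to 292.1, and 26.0% to 26.9% of their probe sets lay under a signal of 16. Kit, which encodes the receptor used in the sort, was bright on all 6 arrays (14.81 to 15.44), and Ly6a, the gene of Sca1, was not analysed here. Srf, the targeted gene, had control values of 13.04, 13.00 and 13.04 and SRF-null values of 12.58, 12.43 and 12.80 on its brighter probe set, a difference of -0.42 (SE 0.14). Its dimmer probe set differed by 0.10 (SE 0.35). Whether either probe set reads the deleted exons is unknown here, so these values do not check the deletion. Sex-linked transcripts set 2 arrays apart. Control replicate 2 lacked Y-linked signal (Kdm5d at 4.0, against 10.54 to 11.98 on the other arrays), and SRF-null replicate 1 lacked Xist (5.03, against 15.13 to 16.24). Where leaving out both arrays changed the sign of a difference or a median, or moved it by over 1.5 times, the value without them is given too.

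The promoter sequences of Tjp1 and Ocln are shown because these genes had the largest differences among the 7. Each run is the 250 bases upstream of a RefSeq start site, 5′ to 3′, from assembly GRCm38.p6, and the capitals mark a GC box (GGGCGG, or CCGCCC when read from the other strand). The Tjp1 window is chr7:65371245-65371494 on the minus strand and lies inside the annotated gene, at an internal start site. The Ocln window is chr13:100552719-100552968 on the minus strand, upstream of the gene.
Tjp1: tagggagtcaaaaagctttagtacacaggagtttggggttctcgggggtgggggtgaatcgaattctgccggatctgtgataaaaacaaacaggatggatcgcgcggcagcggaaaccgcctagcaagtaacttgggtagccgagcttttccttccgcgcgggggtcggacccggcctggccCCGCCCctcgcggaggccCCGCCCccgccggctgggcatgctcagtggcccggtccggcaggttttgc
Ocln: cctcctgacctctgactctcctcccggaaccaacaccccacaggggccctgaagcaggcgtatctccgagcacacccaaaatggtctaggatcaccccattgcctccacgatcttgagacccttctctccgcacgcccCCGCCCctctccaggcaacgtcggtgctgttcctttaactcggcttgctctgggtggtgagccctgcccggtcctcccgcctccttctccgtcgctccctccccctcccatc

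The Tjp1 window holds 2 GC boxes in a sequence of 63.2% G and C, and the Ocln window holds 1 in 64%. A GC box was present in 32.7% of 32851 promoter windows of the same length. Windows were at hand for 4 of the 7 genes (Tjp1, Tjp3, F11r and Ocln), 6 windows in all, since Tjp3 and Ocln have 2 starts each. The CArG box, the sequence that SRF binds, was searched only as CC, then 6 bases of A or T, then GG. It was matched in 0 of these 6 windows on either strand and in 1.47% of all windows. With so small a share over all windows, 0 of 6 cannot tell whether SRF sites lie at these genes. The E-box CAGGTG, or CACCTG on the other strand, was matched in 4 of the 6, namely both Tjp3 windows, the F11r window and the second Ocln window, and in 17.2% of all windows. These matches describe letters in a short window and say nothing of factors bound there.

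Tjp1 had the largest difference of the 7 genes. Its signals as deposited were 7051, 15910 and 17367 on the control arrays and 2080, 758 and 466 on the SRF-null arrays. After normalization the control arrays stood at 12.76, 13.91 and 14.07 and the SRF-null arrays at 10.97, 9.63 and 9.02. Every SRF-null array lay below every control array, and the gap between the groups was wider than the control range of 1.31 and a little narrower than the SRF-null range of 1.95. The difference was -3.71 (SE 0.59), which is 13.1-fold lower in SRF-null cells, and 11 of the 45037 probe sets had a larger fall. SRF-null replicate 1, the array without Xist, kept the most Tjp1 signal. Without that array and control replicate 2 the difference was -4.10 (SE 0.55). Tjp1 is read by 1 probe set, so no second probe set checks this value. ZO-1, its product, binds occludin, claudins, JAMs and actin filaments. In pooled samples such as these, fewer cells that express a gene and less RNA per cell cannot be told apart.

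Tjp3, the gene of the related scaffold ZO-3, did not share this pattern. It stood at 9.33, 9.83 and 10.51 on the control arrays and at 9.89, 10.48 and 9.74 on the SRF-null arrays. The groups overlapped almost entirely, and the difference of 0.14 (SE 0.35) was smaller than the spread between arrays. It was 0.45 without control replicate 3 and turned to -0.14 without control replicate 1 and to -0.08 without SRF-null replicate 2.

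**Figure D1:**
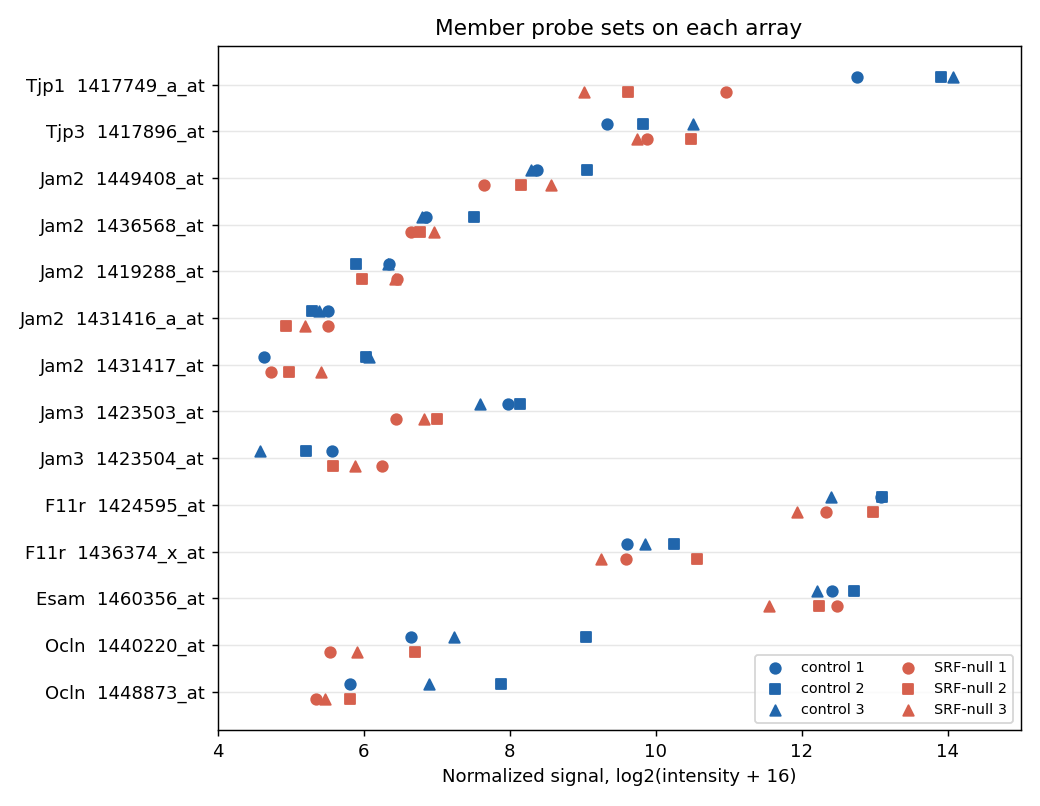
Signal of each of the 14 probe sets on the 6 arrays, on the log2(intensity + 16) scale after normalization, with control arrays in blue and SRF-null arrays in red and 1 marker shape per replicate number. On Tjp1 the SRF-null arrays (9.02 to 10.97) sit apart from the control arrays (12.76 to 14.07), while on Tjp3, F11r and Esam the groups overlap.

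Ocln was lower in SRF-null cells on both of its probe sets, and its control arrays varied widely. On probe set 1440220 the control arrays stood at 6.65, 9.05 and 7.24 and the SRF-null arrays at 5.54, 6.71 and 5.91. On probe set 1448873 the control values were 5.81, 7.89 and 6.90 and the SRF-null values 5.35, 5.81 and 5.48. Control replicate 2 was the highest array on both, and on both the highest SRF-null array just reached the lowest control array, so the groups overlapped. The differences were -1.59 (SE 0.66, 3.02-fold) and -1.32 (SE 0.52, 2.50-fold), and the SRF-null array was lower in each of the 3 number pairs. Control replicate 2 carried much of their size, since without it they were -0.90 (SE 0.41) and -0.81 (SE 0.37). Leaving out SRF-null replicate 1 as well gave -0.63 (SE 0.40) and -0.70 (SE 0.44). Occludin is a membrane protein of the junction strand that binds ZO-1 inside the cell. Both probe sets were dim, with means under the median level of all probe sets (7.97).

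The 3 JAM genes were lower on their brightest probe sets, by unequal amounts. Jam3, whose product JAM-C binds JAM-B and the leukocyte integrin Mac-1, had control values of 7.98, 8.15 and 7.60 and SRF-null values of 6.44, 7.01 and 6.83 on probe set 1423503. The SRF-null arrays all lay below the control arrays, with a difference of -1.15 (SE 0.22, 2.21-fold). The other Jam3 probe set, 1423504, went the opposite way. It stood at 5.57, 5.21 and 4.58 on the control arrays and at 6.25, 5.58 and 5.89 on the SRF-null arrays, a difference of 0.79 (SE 0.31). Here the groups were also apart, but only just, since control replicate 1 and SRF-null replicate 2 nearly met. This probe set was the dimmer one, with deposited signals of 7.9 to 64.1, and its difference depended on the offset, at 1.27 where the offset was 1 and 0.38 where it was 64. On the brighter one the difference was -0.85 (SE 0.24) without the 2 arrays set apart by sex-linked transcripts. The direction for Jam3 therefore differed between its probe sets, and which of them follows its main transcript was not tested.

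Jam2, the gene of JAM-B, which binds JAM-C and the integrin VLA-4, was read by 5 probe sets. On the brightest, 1449408, the control arrays stood at 8.38, 9.07 and 8.30 and the SRF-null arrays at 7.66, 8.16 and 8.56. The groups overlapped, because SRF-null replicate 3 exceeded the control arrays 1 and 3, and the difference was -0.45 (SE 0.31). Without control replicate 2 and SRF-null replicate 1 it was 0.03 (SE 0.24). The other 4 probe sets were under the median level of all probe sets, differed by -0.54 to 0.10, and overlapped between groups. Without the same 2 arrays probe set 1436568 went from -0.26 to 0.04, 1419288 from 0.10 to -0.13, 1431416 from -0.18 to -0.38 and 1431417 from -0.54 to -0.15. Jam2 thus had no settled direction.

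F11r encodes JAM-A, found on platelets, leukocytes and endothelium, where it pairs with itself and binds the integrin LFA-1. Its brighter probe set, 1424595, stood at 13.09, 13.10 and 12.40 on the control arrays and at 12.33, 12.98 and 11.94 on the SRF-null arrays. The SRF-null array was lower in each of the 3 number pairs, but the groups overlapped, with a difference of -0.44 (SE 0.33). It ranged from -0.72 without SRF-null replicate 2 to -0.21 without SRF-null replicate 3, and was -0.67 without control replicate 3 and -0.29 without both arrays set apart by sex-linked transcripts. The second probe set, 1436374, has the name ending _x_at that Affymetrix gives to sets whose probes can bind other transcripts. It differed by -0.10 (SE 0.37), from -0.49 without SRF-null replicate 2 to 0.17 without SRF-null replicate 3, and by 0.17 also without control replicate 2 and SRF-null replicate 1.

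Esam stood at 12.41, 12.71 and 12.21 on the control arrays and at 12.49, 12.23 and 11.56 on the SRF-null arrays. The groups overlapped, and SRF-null replicate 3 was the lowest array. The difference was -0.35 (SE 0.28), and it was -0.09 without SRF-null replicate 3, -0.22 without control replicate 2 and -0.55 without SRF-null replicate 1. Esam and the brighter F11r probe set were well above the bottom of the scale in both genotypes. Blocking on replicate number left these differences as they were and gave an SE of 0.20 for Esam and 0.18 for F11r.

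Over all 14 probe sets 11 were lower and 3 higher in SRF-null cells, with a median difference of -0.40, where the median over all 45037 probe sets was 0.00 and 50% were lower. The groups did not overlap on 3 of the 14 (21.4%), 2 of them lower (Tjp1 and Jam3) and 1 higher (the other Jam3 probe set), against 9.24% of all probe sets, which is given as background only. On the brightest probe set of each gene 6 of the 7 were lower. The matching share over all genes is not given here, so this count is a description only. Among the 6, Jam2 turned to 0.03 without control replicate 2 and SRF-null replicate 1. By limma, 0 of 45037 probe sets passed an adjusted p of 0.05 (percent called 0), so none of the 14 did. At an unadjusted p under 0.05 limma gave 1975 of all probe sets (4.39%), and 3189 with the replicate number as a block.

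**Figure D2:**
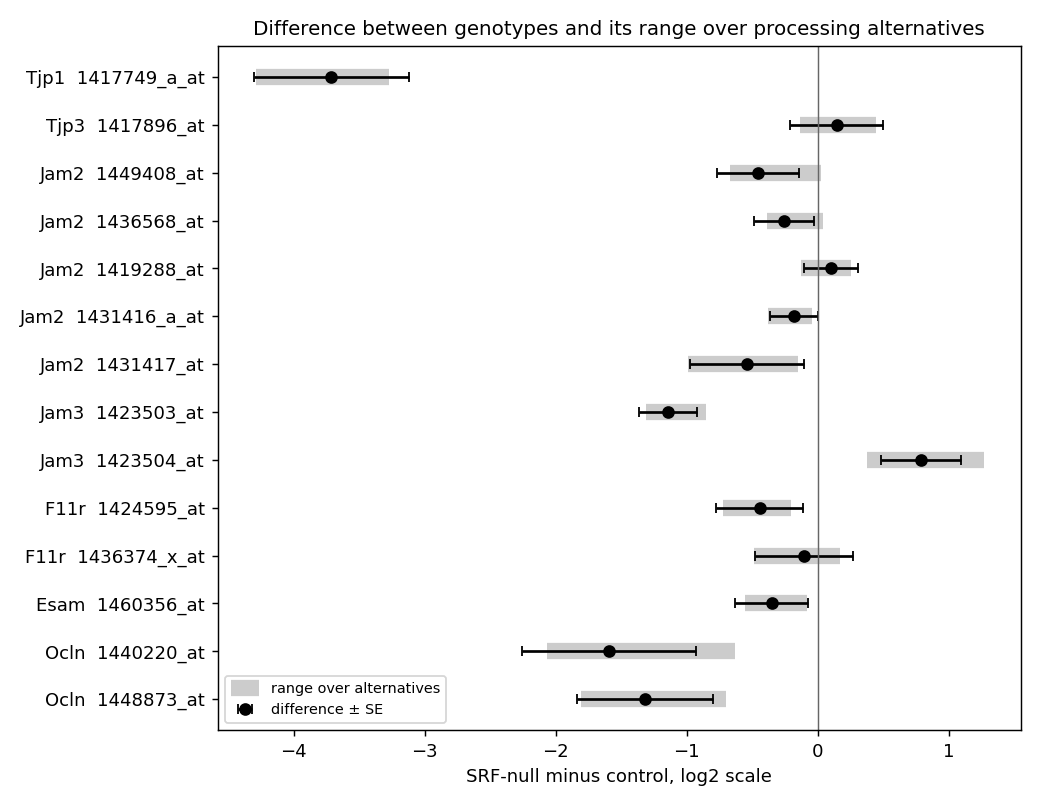
Difference between genotypes (SRF-null minus control, log2 scale) of each probe set, with points and bars for the difference ± SE and grey bands for its range over the processing alternatives. Tjp1 stays between -4.29 and -3.27 and the Jam3 probe sets stay on opposite sides of 0, while the bands of Tjp3, of 3 Jam2 probe sets and of the dimmer F11r probe set reach across 0.

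Replicate numbers 1 to 3 occur in each genotype, and arrays of equal number deviated together over all probe sets. The labels do not say what a number marks, so arrays of equal number need not be matched pools. Sex-linked transcripts differed within number pairs 1 and 2. Xist was 16.24 on control replicate 1 and 5.03 on SRF-null replicate 1. Kdm5d was 4.0 on control replicate 2 and 11.84 on SRF-null replicate 2. Within these pairs Tjp1 was lower by amounts that differed widely, at -1.80, -4.29 and -5.05 for numbers 1, 2 and 3. Jam3 on probe set 1423503 was more even, at -1.54, -1.13 and -0.76. Ocln differed by -1.11, -2.34 and -1.33 on probe set 1440220 and by -0.47, -2.07 and -1.42 on 1448873. In all, 5 of the 14 probe sets were lower in every pair, namely those of Tjp1 and Ocln, the brighter Jam3 set and the brighter F11r set. The dimmer Jam3 set and the Jam2 set 1419288 were higher in every pair. The share of all probe sets that moved 1 way in every pair was not computed, so the count is a description only. Taking the pairs into account brought the SE of the brighter Ocln difference from 0.66 to 0.29. For Tjp1 it raised the SE, from 0.59 to 0.68.

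**Figure D3:**
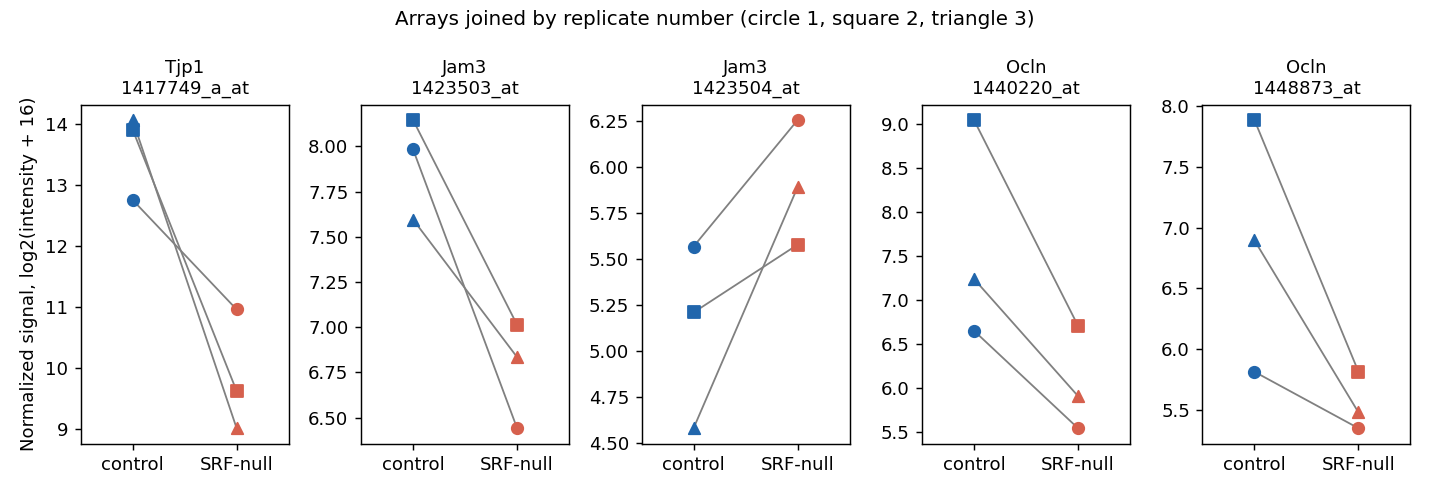
Signals of the Tjp1, Jam3 and Ocln probe sets, on the log2(intensity + 16) scale with a separate range in each panel, with lines joining arrays of equal replicate number. All 3 lines fall for Tjp1, for Jam3 on 1423503 and for Ocln on both probe sets, and all 3 rise for Jam3 on 1423504.

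The other junction genes had list medians near 0, and single members differed in both directions. In 6 lists of partners there were 93 measured genes, each taken on its brightest probe set, and 0 of them passed limma's adjusted p of 0.05. At an unadjusted p under 0.05 there were 9 of the 93 (9.68%), 4 higher and 5 lower, where 4.95% of all 18193 genes lay under it. That count fell to 5 with median centring, to 5 without control replicate 2, and to 3 when SRF-null replicate 1 was left out too. List medians ran from -0.09 to 0.09, beside -0.01 over all genes, and from -0.02 to 0.06 without those 2 arrays. Without them the claudin median turned from -0.09 to 0.01 and the plaque and tricellular median from -0.03 to 0.001. The polarity median turned from -0.04 to 0.03 and the adherens junction median from -0.0009 to 0.06. That of the immunoglobulin genes related to the JAMs went from -0.09 to -0.02.

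Among genes of the tight junction plaque and of tricellular junctions, 8 of 20 were higher and 12 lower, with a median of -0.03. Mpdz, which encodes a scaffold with many PDZ domains that binds claudins and JAMs, had control values of 10.38, 11.43 and 10.66 and SRF-null values of 9.04, 9.51 and 9.44. All SRF-null arrays lay below the control arrays, with a difference of -1.49 (SE 0.30, 2.81-fold, limma adjusted p = 0.922), although 1 of its 4 probe sets had the opposite sign. Ildr2, of tricellular junctions, differed by -0.84 (SE 0.27) and was dim, at -1.66 with an offset of 1 and -0.34 with 64. Cgnl1, the gene of paracingulin, differed by 0.88 (SE 0.34), and 2 of its 5 probe sets had the opposite sign. Amotl2, of the angiomotin family, differed by -0.70 (SE 0.48), and by -0.17 without control replicate 3 and -1.10 without control replicate 1.

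Claudin genes, which encode the sealing proteins, were mostly dim. Of 20 measured, 18 had means under the median level of all probe sets and 9 lay under a signal of 16 on every array. Of the 20, 8 were higher and 12 lower, with a median of -0.09. Cldn5, the main endothelial claudin, had control values of 6.57, 5.01 and 5.18 and SRF-null values of 6.82, 7.15 and 6.85. Its difference of 1.35 (SE 0.43), or 0.79 with an offset of 64, was opposite in sign to that of Tjp1 and Ocln. Cldn12, a claudin found in many tissues, was bright and differed by -0.52 (SE 0.35), with -0.19 without SRF-null replicate 3 and -0.83 without SRF-null replicate 2. Cldn4, under a signal of 16 on every array, differed by -0.34 (SE 0.18), a size that the offset sets, since it was -1.54 with an offset of 1 and -0.10 with 64. Cldn19, also dim, differed by 0.22 (SE 0.17), at 0.37 and 0.09 with these offsets and 0.36 without both arrays set apart by sex-linked transcripts.

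Integrins that bind JAMs differed in both directions. Itgb2, the beta chain of LFA-1 and Mac-1, had control values of 11.31, 11.33 and 11.92 and SRF-null values of 12.41, 12.52 and 12.12. The SRF-null arrays all lay above the control arrays, with a difference of 0.83 (SE 0.22, limma adjusted p = 1). Its alpha partners Itgal and Itgam differed by 0.44 (SE 0.29) and 0.14 (SE 0.23). The Itgal difference was 0.20 without control replicate 1 and 0.72 without control replicate 3, and the Itgam difference turned to -0.02 without SRF-null replicate 2. Itgb3, a beta chain that pairs with the alpha V chain, differed by -0.71 (SE 0.27) with overlapping groups, although 1 of its 2 probe sets had the opposite sign. Itgav itself differed by -0.02 (SE 0.15), and by -0.09 without both arrays set apart by sex-linked transcripts. The chains of VLA-4, Itga4 (0.06, SE 0.13) and Itgb1 (0.09, SE 0.20), differed by less than their standard errors, and Itga4 by 0.03 without those 2 arrays.

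Genes of cell polarity and PDZ partners of JAMs had 11 of 25 members higher and 14 lower, with a median of -0.04. Pard6g, a subunit of the PAR complex, was higher on all SRF-null arrays by 0.37 (SE 0.12), although 1 of its 2 probe sets had the opposite sign. Pard6b differed by -0.69 (SE 0.30), by -0.46 without control replicate 2 and by -0.32 when SRF-null replicate 1 was left out too. Llgl1, a polarity scaffold, differed by -0.49 (SE 0.20) and Pals1 by -0.35 (SE 0.16). Pard3, whose product binds the tails of JAMs, differed by 0.36 (SE 0.18) and was dim, and 2 of its 4 probe sets had the opposite sign.

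Adherens junction genes were evenly split, 7 higher and 7 lower, with a median of 0.00. Ctnna2, an alpha catenin known from neurons, stood at 5.52 to 6.64 on the control arrays and at 4.74 to 5.15 on the SRF-null arrays, a difference of -1.23 (SE 0.31), or -1.89 with an offset of 1 and -0.61 with 64. Cdh1, the gene of E-cadherin, differed by 1.12 (SE 0.72), with 0.56 without control replicate 2, 0.66 without SRF-null replicate 3 and 1.72 without SRF-null replicate 1. Cdh3 differed by -0.32 (SE 0.23), with -0.13 without control replicate 3 and -0.52 without control replicate 1. Vinculin, Vcl, differed by 0.18 (SE 0.12), although 1 of its 2 probe sets had the opposite sign. Immunoglobulin genes related to the JAMs were dim, with 7 of 7 under the median level of all probe sets, and 5 were lower. The coxsackievirus receptor gene Cxadr differed by -0.24 (SE 0.14), but 3 of its 5 probe sets had the opposite sign, and it was -0.15 without SRF-null replicate 3 and -0.12 with an offset of 64. Vsig2 differed by -0.25 (SE 0.26), by -0.06 without SRF-null replicate 3, by -0.51 without SRF-null replicate 1 and by -0.43 when control replicate 2 was left out too. Igsf11 and Vsig1 lay under a signal of 16 on every array, so the offset sets the size of their differences. Igsf11 differed by -0.21 (SE 0.13), but by -0.06 with an offset of 64. Vsig1 differed by 0.16 (SE 0.14), at 1.03 with an offset of 1, 0.04 with 64 and 0.09 without both arrays set apart by sex-linked transcripts.

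**Figure D4:**
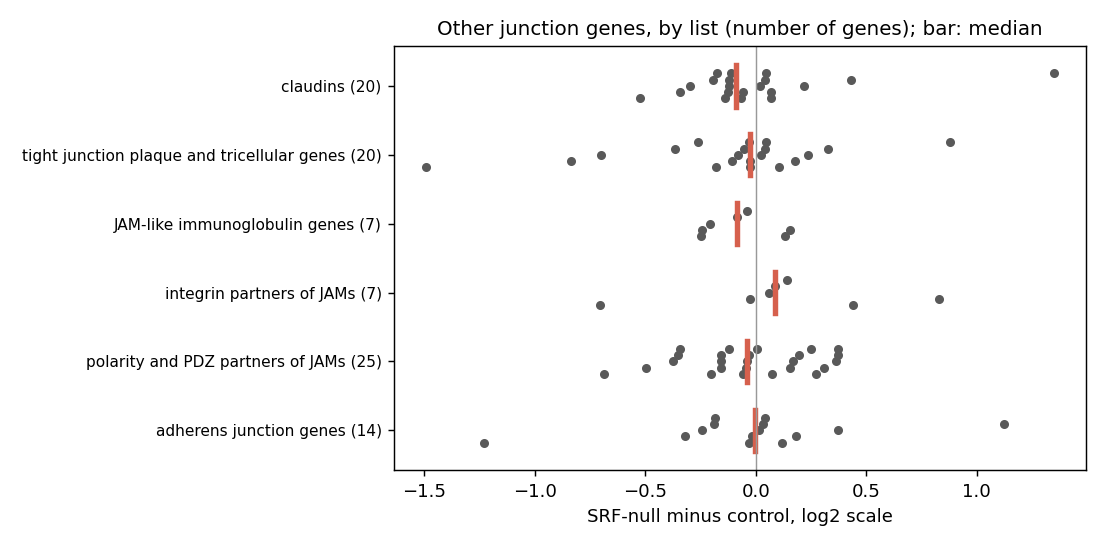
Differences (SRF-null minus control, log2 scale) of the genes in 6 lists of junction partners, 1 point per gene on its brightest probe set, with a bar at each list's median. The medians lie between -0.09 and 0.09, and single genes such as Mpdz (-1.49), Ctnna2 (-1.23) and Cldn5 (1.35) stand away from their lists.

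Markers of cells that use these genes for junctions were measured beside them. Of 10 epithelial markers 7 had means under the median level of all probe sets, among them Epcam (6.44 to 9.01) and Krt8 (6.46 to 7.33), while Krt18 was bright. Their summed deposited signal was 68233 to 75898 on the control arrays and 48895 to 63153 on the SRF-null arrays, nearly all of it from Krt18. The other 9 summed to 1385 to 1835 in control and 1275 to 1625 in SRF-null cells. Of the 10, 4 were higher and 6 lower, with a median of -0.10, or 0.13 without control replicate 3. Over the 6 arrays the endothelial cadherin gene Cdh5 ranged from 6.39 to 7.40 and Plvap from 5.91 to 7.72, and Sox17 was under a signal of 16 on every array. The summed signal of the 15 endothelial markers was 71560 to 89779 in control and 55606 to 81806 in SRF-null cells. This sum leans on Egfl7, the brightest of them on every array (14.29 to 15.16). It also leans on Erg, Tek, Tie1 and Robo4, with control means of 13.74, 13.62, 13.27 and 13.06. Cdh5, Plvap and Sox17 add little to it. Of these 15, 8 were higher and 7 lower, with a median of 0.06 that changed sign when single arrays were left out (-0.09 without control replicate 1). Cldn5 had the largest difference among them, at 1.35. Tek, at -0.84 (SE 0.19), and Tie1, at -0.92 (SE 0.24), receptors that stem cells share with endothelium, were lower on all SRF-null arrays. Both were named after their values were seen. The other endothelial markers above the median level of all probe sets differed in both directions. Egfl7 differed by 0.32 (SE 0.27), Pecam1 by 0.11 (SE 0.18) and Emcn by 0.06 (SE 0.22). Erg differed by -0.07 (SE 0.21), Robo4 by -0.39 (SE 0.40) and Vwf by -0.55 (SE 0.34).

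Macrophage markers were higher in the SRF-null samples, all 8 of them, with a median difference of 1.09, and their mean level was 9.10 to 9.48 on the control arrays and 9.64, 10.74 and 11.03 on SRF-null replicates 1, 2 and 3. Their summed deposited signal was 12364 to 32887 in control and 30048 to 38753 in SRF-null cells, and none was under a signal of 16 on all arrays. Among them Mrc1 had the largest difference, 2.08 (SE 0.55), and the genes of the complement protein C1q and of the growth factor receptor CSF1R, C1qa and Csf1r, differed by 1.70 (SE 0.56) and 0.62 (SE 0.65). Csf1r was the brightest of the 8 on every array, so the summed signal leans on it. It stood at 12.11, 14.25 and 14.63 on the control arrays and at 14.21 to 14.40 on the SRF-null arrays. Of 9 megakaryocyte and platelet markers 7 were higher (median 0.34), of 9 lymphocyte markers 8 (median 0.35), of 9 granulocyte and erythroid markers 7 (median 0.14) and of 9 stromal markers 6 (median 0.10). Without control replicate 2 and SRF-null replicate 1 these medians were 0.63 for megakaryocyte and platelet, 0.70 for lymphocyte, 0.94 for granulocyte and erythroid and 0.08 for stromal markers, and the macrophage median was 1.54. Without control replicate 1 the megakaryocyte and the granulocyte and erythroid medians were both -0.03, without SRF-null replicate 3 they were 0.10 and -0.08 and the lymphocyte median was 0.05, and the stromal median was -0.05 without SRF-null replicate 2. Apart from the macrophage median, each thus moved by over 1.5 times when single arrays were left out. Of 10 LSK markers 4 were higher and 6 lower. Their median was -0.14, or -0.23 without control replicate 2 and SRF-null replicate 1 and 0.04 without control replicate 1. Slamf1, a marker of stem cells, was named after its values were seen and had the largest difference among them. It stood at 11.60, 12.33 and 11.80 on the control arrays and at 11.61, 10.73 and 9.18 on the SRF-null arrays. The groups overlapped, and the difference was -1.40 (SE 0.62). The other LSK markers ran from -0.36 (Mecom, SE 0.30) to 0.16 (Cd48, SE 0.26). The part of these other cells in the lower Tjp1, Ocln and Jam3 signals was not tested.

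For each member the genes with the nearest profiles over the 6 arrays were sought. Likeness was the root mean square distance between log2 signals centred on each gene's mean, over 6 arrays and 19401 candidate probe sets. Candidates were probe sets that name 1 gene, not a member, and have a mean above the median level of all probe sets. Dimmer profiles were not searched, although the Ocln and Jam3 probe sets used here lie under that level. Nearest to Tjp1 were the cytokine feedback gene Socs2 (distance 0.85), Plxdc2 (1.03) and the transcription factor gene Klf9 (1.03), where Tjp1 itself departed from its mean by 1.99. These differed between genotypes by -2.69 (SE 0.46), -1.93 (SE 0.21) and -1.89 (SE 0.42), each smaller in size than the difference of Tjp1. Likeness was taken over the same 6 arrays, so a lower level in SRF-null cells follows from the choice of these neighbours. Nearest to Jam3 on its brighter probe set were the retinaldehyde dehydrogenase gene Aldh1a1 (0.16), Npdc1 (0.17) and 2510009E07Rik (0.18). Nearest to Ocln were Gm4951 and Slc16a12 (0.36 each) and Slc6a15 (0.37). For Jam2 they were Dgke (0.08), Dcaf12l1 (0.09) and Btbd19 (0.09), and for F11r Rab17 (0.08), Triqk (0.10) and Gm19696 (0.10). For Esam they were Deptor (0.09), 4932438A13Rik (0.10) and Crlf2 (0.11), and for Tjp3 Ids (0.08), Dcaf5 (0.08) and Dnajc2 (0.11). Close profiles are easily found among so many candidates over 6 arrays, and the distances are a description.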

How the data were processed

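The deposited values are linear intensities, 1 for each probe set on each array, as read from the values themselves. Which summary, background correction and scaling the authors applied to them was not stated. The 64 Affymetrix control probe sets of 45101 were left out. Gene names came from GEO's platform annotation, where 34945 of the remaining probe sets name 1 gene, 932 several and 9160 none in the table used here, and list genes were matched to it by symbol or gene ID through a RefSeq gene table.

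Intensities were converted to log2(intensity + 16). Array medians on this scale differed by 0.51, above the limit of 0.1, so arrays were quantile normalized. SRF-null and control arrays were compared in limma 3.58.1, run under R 4.3.3 (linear models with moderated variances, genotype alone as a term, Benjamini-Hochberg over all 45037 probe sets, threshold 0.05), after tests on simulated data. The number of arrays limits the precision. Members, gene lists and rules were chosen with earlier results of these data known. The rule names every member on all its probe sets, Srf, from each partner list the 4 genes of smallest p, all JAM-binding integrins, defining markers, and the 3 nearest profiles per member. Pard3 among the partners, and Tek, Tie1, Slamf1, Krt18, Mrc1, C1qa and Csf1r among the markers, were added after their values were seen.

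Pairing by replicate number was read from the data. The correlation of equal-numbered arrays' deviations from their group means was 0.473, 0.210 and 0.427, and for unequal numbers -0.424 to 0.014. Deviations within a group cancel out by construction, so the values for unequal numbers are not separate evidence of pairing. Promoter windows are RefSeq's on GRCm38.p6. Figures were drawn with matplotlib 3.10.9.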

Additional observations from a re-analysis of the deposited data

How the results depend on the processing

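Results were recomputed under 15 alternatives. Of the 14 tight junction and JAM probe sets, 9 kept their direction in every alternative that gave a value, among them those of Tjp1, Ocln and Jam3, and 5 changed it in at least 1. With the replicate number as a block, probe sets of all kinds with an unadjusted limma p under 0.05 numbered 3189, against 1975 without it, and the block changed no other count by over 1.5 times. That count was 1230 with median centring, 1127 with only probe sets above the median level, 1042 with the brightest probe set per gene, 1291 without control replicate 2 and SRF-null replicate 1, and 1426 to 3428 when single arrays were left out. At an adjusted p of 0.05 there was 1 call with median centring and 0 to 1 with single arrays left out, against 0. Member probe sets lower in SRF-null cells numbered 6 with the brightest probe set per gene and 5 with only those above the median level, against 11, because fewer were tested. Non-overlapping member probe sets numbered 1 above the median level and 3 to 8 with single arrays left out, against 3. Partner genes under an unadjusted limma p of 0.05 numbered 5 with median centring, 3 without the pair of arrays just named and 5 to 13 with single arrays left out, against 9, and marker genes 5 to 15, against 10. With single arrays left out Itgam ranged from -0.021 to 0.319, Itgb1 from -0.054 to 0.227 and Itgav from -0.084 to 0.071, so these 3 have no settled direction. The cause of these changes was not tested. The filter on dim probe sets left no value for 8 member probe sets. Those 8 lie in the lower part of the scale, where the offset limits the size of a difference.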
